A study of Homo sapiens with 8 samples.

Results

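TXNIP, the 4 arrestin-domain genes ARRDC1 to ARRDC4 and the glucose-sensing transcription factor pair MLXIP (MondoA) and MLX were measured in cells exposed to sodium benzoate (SB), the salt of benzoic acid used as a food preservative. The 7 genes were listed by their place on the MondoA axis, and all 7 had a row among the 14526 genes of the authors' table. The study sequenced RNA from 4 control cultures and 4 cultures treated with 10 mM SB for 24 h, each labelled HepG2, a line derived from a human liver carcinoma, and grown in DMEM with 10% serum. No label gives a genotype or an added agent other than SB, and the controls are the cultures without SB. The study calls the replicates of a group biological, without saying how they were grown apart.

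MondoA and its partner MLX form a basic helix-loop-helix leucine zipper dimer that moves to the nucleus when sugar phosphates such as glucose 6-phosphate rise, and binds carbohydrate response elements in promoters. TXNIP and ARRDC4 are its best known targets. Both encode alpha-arrestins, adaptor proteins that bring membrane proteins to NEDD4-family ubiquitin ligases. TXNIP also binds thioredoxin and restrains glucose uptake, so the axis works as a feedback loop on sugar supply, also in liver cells.

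Levels are given in RPKM, reads per kilobase of gene scaled to library size, so that genes of different length can be compared. Whole reads could be recovered from the table and numbered between 36964791 and 44846247 per library. A member had between 421 and 9385 reads in a library, so that counting error alone was at most 4.87% of a value. Of 20 genes that define hepatocytes, 18, among them ALB, AFP, APOA1 and HNF4A, had no row. In the controls TF, which encodes transferrin, measured only 0.192 ± 0.0188 RPKM (SD, n = 4), so the labelled cell type was not borne out by its markers. Of 7 markers of stromal, endothelial and blood cells, 3 had a row, COL1A1 at 4.86 ± 0.924, COL3A1 at 2.49 ± 0.226 and CD68 at 1.28 ± 0.0942 RPKM (SD, n = 4) in the controls. Control replicate 1 stood apart. The chi-square of its reads against the other controls was 33.4 to 38.4 per degree of freedom, compared with 1.52 to 3.80 for all other pairs within a group. Values of the members are therefore also given without it.

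The members were chosen by their place on the axis and with their RPKM differences between these same SB-treated and control libraries known. Those differences are a description and carry no test. A reading from bulk RNA also cannot tell fewer expressing cells from less RNA per cell. The 5 alpha-arrestins and the 2 transcription factors did not move as a block. TXNIP and ARRDC4 were 1.89-fold and 2.12-fold lower in SB-treated cells, MLXIP and ARRDC2 were 1.54-fold and 1.5-fold higher, and ARRDC1, ARRDC3 and MLX lay close to their control levels. The groups did not overlap for 5 of the 7 genes, 2 higher and 3 lower, where 61.5% of all genes had groups that did not overlap, 31.0% higher and 30.5% lower. The same 5 had a limma adjusted p-value below 0.05, where 65.6% of all genes did, and nothing is read from either count.

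The upstream sequences of TXNIP and ARRDC4 are shown because these 2 genes were lower together and because the binding element of MondoA and MLX is a tandem of E-box-like motifs. Both are RefSeq sequence of GRCh38.p14, 250 bases ending at the base before the outermost start site of the gene, 5′ to 3′ on the strand of the gene. TXNIP lies on the minus strand, with its window at chr1:145996580-145996829. ARRDC4 lies on the plus strand, with its window at chr15:97960453-97960702. Capitals mark every match, on either strand, to CACGTG (the E-box), to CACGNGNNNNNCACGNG (the tandem) or to CCAAT.
TXNIP: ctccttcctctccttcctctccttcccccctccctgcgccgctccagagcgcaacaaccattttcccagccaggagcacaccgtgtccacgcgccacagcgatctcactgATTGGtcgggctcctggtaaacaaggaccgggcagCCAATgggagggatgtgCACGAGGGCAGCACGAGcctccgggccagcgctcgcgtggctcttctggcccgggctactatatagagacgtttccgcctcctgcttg
ARRDC4: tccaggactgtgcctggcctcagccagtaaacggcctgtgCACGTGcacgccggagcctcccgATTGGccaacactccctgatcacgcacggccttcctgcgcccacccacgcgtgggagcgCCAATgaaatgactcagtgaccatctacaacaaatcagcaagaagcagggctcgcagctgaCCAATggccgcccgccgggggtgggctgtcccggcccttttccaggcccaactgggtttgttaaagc

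The TXNIP window held 1 tandem match of 17 bases, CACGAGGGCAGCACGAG, at positions -88 to -72 from the start site, and CCAAT matches at -140 to -136, on the opposite strand, and at -105 to -101. Only 16 of 34943 windows of the same length hold the tandem, or 0.0458%, while 6.32% hold an E-box and 32.0% a CCAAT match. The ARRDC4 window held no tandem in this spelling. It held 1 E-box, at -210 to -205, and 3 CCAAT matches, the one nearest to the start site at -67 to -63. MLX also had an E-box, at -50 to -45. ARRDC1, ARRDC2, ARRDC3 and MLXIP had neither an E-box nor a tandem in this window, and ARRDC2 was the only member without a CCAAT match there. TXNIP, ARRDC2 and ARRDC3 each have a second RefSeq start site, and the window before it held no match for TXNIP and ARRDC3 and 1 CCAAT match for ARRDC2. A match of letters does not show that a factor binds. The tandem was searched in this spelling only, so a window without a match is not shown to lack the element. Nothing is read from the rarity of the match in TXNIP, which was already a known target.

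**Figure D1:**
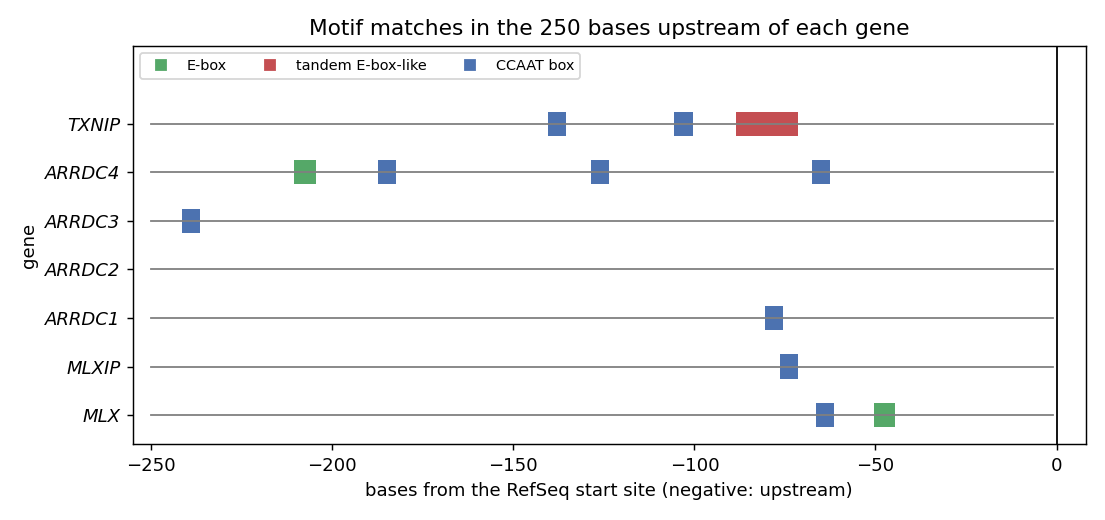
Matches to 3 motifs in the 250 bases upstream of the outermost RefSeq start site of each gene. The horizontal axis is the distance from the start site in bases, and each coloured box is 1 match on either strand. Only TXNIP carries the tandem in the spelling searched, from -88 to -72, and ARRDC4 has 3 CCAAT matches and 1 E-box.

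The 16 windows with the tandem belong to 16 genes, of which 12 had a row. Apart from TXNIP, 1 of the other 11 rose with SB, 6 fell and 4 did not pass the limma test, beside 33.0% rising and 32.6% falling among all genes. GFPT1, the first enzyme of the hexosamine pathway, rose from 13.7 ± 0.469 to 15.3 ± 0.292 RPKM (SD, n = 4 each, limma adjusted p = 0.00419). RCN3, a calcium-binding protein of the endoplasmic reticulum, fell from 3.01 ± 0.373 to 1.11 ± 0.105 RPKM (SD, n = 4 each, limma adjusted p = 2.69e-06).

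The TXNIP gene spans bases 145992435 to 145996579 of chromosome 1 in hg38 (minus strand), with 8 exons in its canonical transcript. It was the most abundant member in both groups. The controls measured 74.8, 69.9, 69.9 and 71.5 RPKM in replicates 1 to 4, and the SB-treated cells 38.3, 37.8, 37.6 and 37.7 RPKM. Every SB-treated library was far below every control, and the 4 treated values lay within 1 RPKM of each other. The mean was 71.5 ± 2.30 RPKM (SD, n = 4) in control and 37.8 ± 0.332 RPKM (SD, n = 4) in SB-treated cells, 1.89-fold lower. The log2 fold change on the log2(RPKM + 1) scale was -0.90 (SE 0.034), and -0.88 (SE 0.024) without control replicate 1. It ranked 63rd among 14526 genes ordered from the largest fall.

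ARRDC4, the second most abundant member in the controls, spans bases 97960703 to 97973833 of chromosome 15 (plus strand). Its encoded arrestin, like TXNIP, is known to limit glucose uptake. It measured 38.8, 33.8, 33.4 and 33.9 RPKM in the controls and 16.9, 16.2, 16.4 and 16.3 RPKM in the SB-treated cells. The groups were well apart, and control replicate 1 was the highest of all 8. The mean went from 35.0 ± 2.59 to 16.5 ± 0.312 RPKM (SD, n = 4 each), 2.12-fold lower, or 2.05-fold lower without control replicate 1. The log2 fold change was -1.04 (SE 0.050), which placed it 29th from the largest fall.

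The ratio of TXNIP to ARRDC4 within a library does not depend on how libraries are scaled. It was 1.93, 2.07, 2.1 and 2.11 in the controls and 2.27, 2.32, 2.30 and 2.31 in the SB-treated cells. The groups did not overlap, but the shift was small, from 2.05 ± 0.0853 to 2.30 ± 0.0251 (SD, n = 4 each). ARRDC4 was thus lower by a little more than TXNIP, while both were lower by almost the same factor. Against ARRDC3, which was nearly level, TXNIP went from a ratio of 6.56 ± 0.308 to 3.53 ± 0.0982 and ARRDC4 from 3.20 ± 0.0215 to 1.54 ± 0.0332 (SD, n = 4 each).

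**Figure D2:**
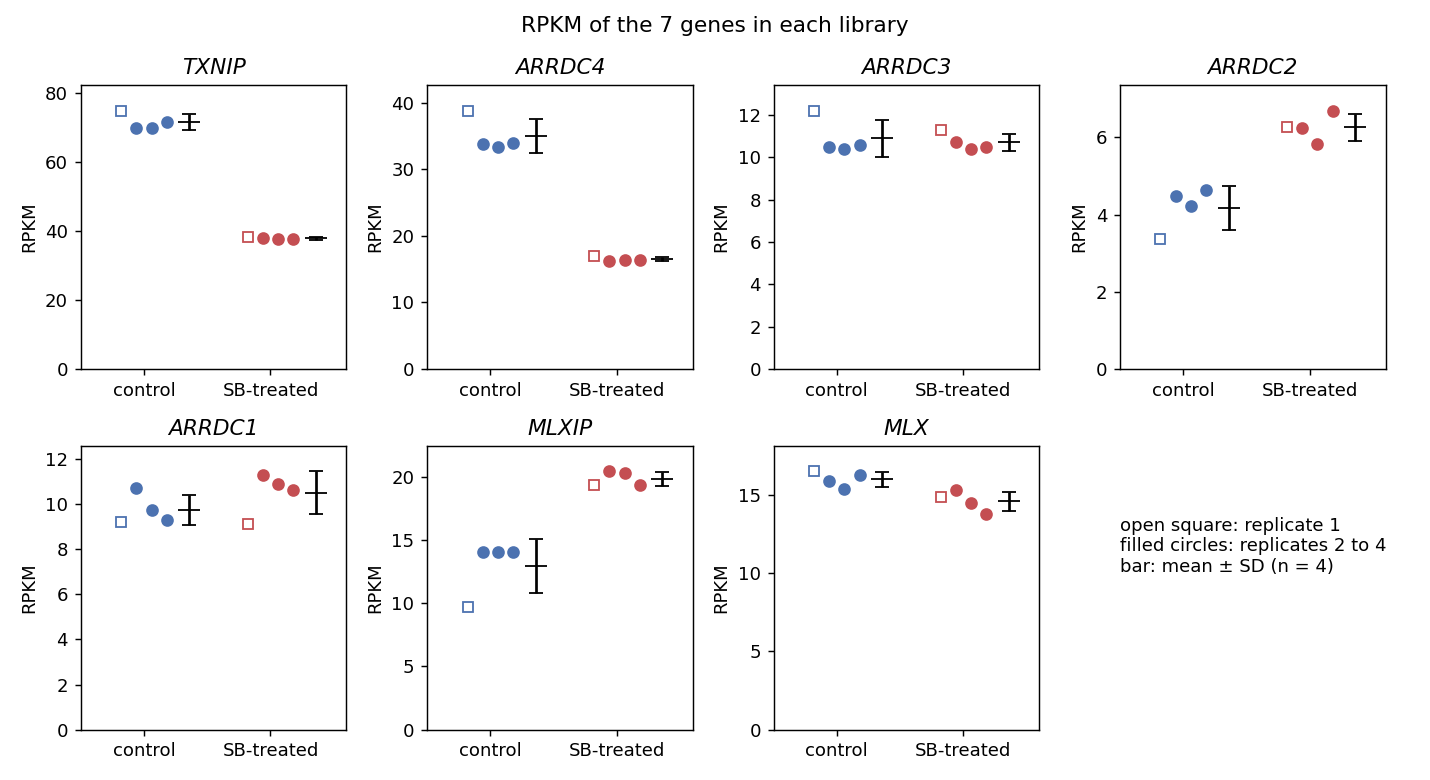
RPKM of each gene in the 4 control and 4 SB-treated libraries, with a separate vertical axis from 0 for each gene. Squares are replicate 1, circles replicates 2 to 4, and bars the mean ± SD. TXNIP and ARRDC4 sit lower in every treated library, MLXIP and ARRDC2 higher, and control replicate 1 lies apart for MLXIP, ARRDC3 and ARRDC4.

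The other alpha-arrestins did not follow TXNIP. ARRDC2, at bases 18001132 to 18014102 of chromosome 19 (plus strand), was the least abundant member. It measured 3.36, 4.49, 4.21 and 4.63 RPKM in the controls and 6.26, 6.25, 5.83 and 6.69 RPKM in the SB-treated cells. All treated libraries were above all controls. The means were 4.17 ± 0.568 and 6.26 ± 0.351 RPKM (SD, n = 4 each), 1.5-fold higher, with a log2 fold change of 0.50 (SE 0.077). Without control replicate 1, the lowest library, the difference was 1.41-fold and the log2 fold change 0.42 (SE 0.043).

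ARRDC3, an adaptor known for the beta2-adrenergic receptor and integrin beta4, spans bases 91368631 to 91383317 of chromosome 5 (minus strand). It measured 12.2, 10.5, 10.4 and 10.6 RPKM in the controls and 11.3, 10.7, 10.4 and 10.5 RPKM in the SB-treated cells. The groups overlapped throughout, with a log2 fold change of -0.02 (SE 0.053) that became 0.03 (SE 0.031) without control replicate 1. ARRDC1, an adaptor of vesicles that bud from the plasma membrane, spans bases 137605685 to 137615360 of chromosome 9 (plus strand). It measured 9.20, 10.7, 9.74 and 9.29 RPKM in the controls and 9.13, 11.3, 10.9 and 10.6 RPKM in the SB-treated cells. These groups also overlapped, with a log2 fold change of 0.10 (SE 0.066) and with replicate 1 the lowest library in both groups.

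MLXIP, which encodes MondoA, spans bases 122078756 to 122147344 of chromosome 12 (plus strand) and has 17 exons in its canonical transcript. It was higher in SB-treated cells, where TXNIP and ARRDC4 were lower. The controls measured 9.71, 14, 14 and 14 RPKM and the SB-treated cells 19.3, 20.4, 20.3 and 19.3 RPKM. Control replicates 2 to 4 were almost identical, replicate 1 was well below them, and every treated library was above all 4. The mean went from 12.9 ± 2.14 to 19.8 ± 0.583 RPKM (SD, n = 4 each), a log2 fold change of 0.60 (SE 0.102). Without control replicate 1 the control mean was 14 ± 0.0365 RPKM (SD, n = 3), the fold 1.42 in place of 1.54 and the log2 fold change 0.47 (SE 0.028).

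MLX, the partner that MondoA needs to bind DNA, spans bases 42567072 to 42573239 of chromosome 17 (plus strand). It measured 16.5, 15.9, 15.4 and 16.3 RPKM in the controls and 14.9, 15.3, 14.5 and 13.8 RPKM in the SB-treated cells. The groups lay next to each other, with the lowest control at 15.4 and the highest treated library at 15.3 RPKM. The means were 16.0 ± 0.463 and 14.6 ± 0.614 RPKM (SD, n = 4 each), a log2 fold change of -0.12 (SE 0.040), which was -0.03 when the libraries were not scaled with TMM factors. The ratio of MLXIP to MLX within a library, free of that scaling, was 0.589, 0.879, 0.910 and 0.861 in the controls and 1.30, 1.34, 1.40 and 1.40 in the SB-treated cells. In RPKM, MLX was therefore the more abundant of the pair in every control and MLXIP in every SB-treated library. MLX shares 775 exonic bases with PSMC3IP, a gene on the opposite strand, and MLXIP shares none with another gene. How reads there were counted is not known, so the level of MLX and the crossing of the pair are uncertain.

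**Figure D3:**
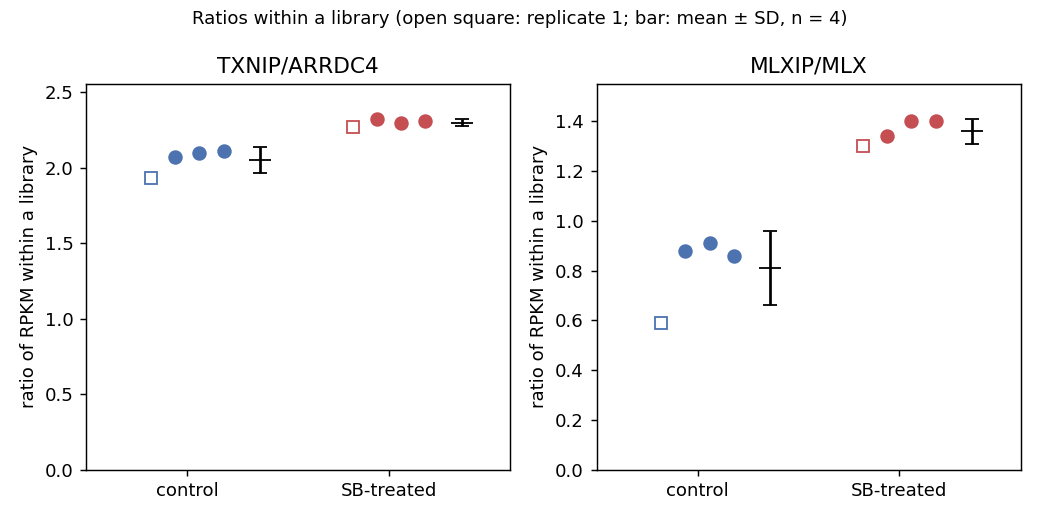
Ratio of the RPKM of TXNIP to ARRDC4 (left) and of MLXIP to MLX (right) within each library, with bars for the mean ± SD and squares for replicate 1. The left ratio moves from 2.05 to 2.30 and the right from 0.810 to 1.36, across 1. The right ratio depends on how reads in the overlap of MLX with PSMC3IP were counted.

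The order of the levels changed with treatment. In the controls it ran TXNIP, ARRDC4, MLX, MLXIP, ARRDC3, ARRDC1 and ARRDC2, and the values of MLXIP and ARRDC3, and of ARRDC3 and ARRDC1, overlapped. In the SB-treated cells it ran TXNIP, MLXIP, ARRDC4, MLX, ARRDC3, ARRDC1 and ARRDC2, where only ARRDC3 and ARRDC1 overlapped. In RPKM, MLXIP thus passed both MLX and ARRDC4, where the level of MLX depends on the counting in its overlap with PSMC3IP. The 5th and the 95th percentile of the log2 fold change over all genes, in the fit with all 8 libraries, were -0.52 and 0.50. TXNIP, ARRDC4 and, with all 8 libraries, MLXIP lay outside this range, and ARRDC2 lay at its upper edge. The median over the 7 members was -0.02, beside 0.00 for all genes.

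**Figure D4:**
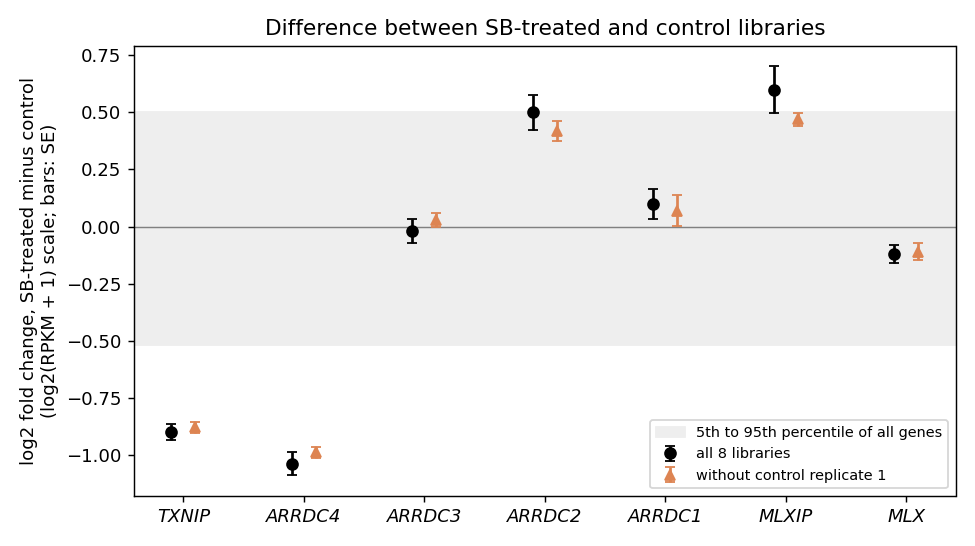
Log2 fold change of each gene (SB-treated minus control, log2(RPKM + 1) scale) with all 8 libraries (circles) and without control replicate 1 (triangles), with bars for the SE. The grey band spans the 5th to the 95th percentile of all genes in the fit with all 8 libraries, -0.52 to 0.50. TXNIP and ARRDC4 lie below the band, and MLXIP falls to 0.47 without control replicate 1.

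The place of control replicate 1 went with the base composition of the members. In the 4 genes whose canonical transcripts had a GC content of 49.9% or less, TXNIP (43.8%), ARRDC3 (37.2%), ARRDC4 (43.4%) and MLX (49.9%), this library was the highest control. In the 3 genes of higher GC content, MLXIP (57.8%), ARRDC2 (60.7%) and ARRDC1 (64.1%), it was the lowest. For ARRDC1 (9.20 against 9.29 RPKM) and MLX (16.5 against 16.3 RPKM) the gap to the next control was small. It was below the counting error of up to 4.24% and 2.66%. The log2 fold changes between the groups split in the same way. They were negative in the 4 genes of lower GC content (TXNIP -0.90, ARRDC3 -0.02, ARRDC4 -1.04, MLX -0.12). In the 3 others they were positive (MLXIP 0.60, ARRDC2 0.50, ARRDC1 0.10). ARRDC3 turned to 0.03 without control replicate 1. The part of base composition in the differences between the groups was not tested. The directions of TXNIP, ARRDC4, MLXIP and ARRDC2 were the same without this library.

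Overlaps with other genes are given because the strand setting of the counting is not stated in the sources used here. ARRDC1-AS1 overlaps ARRDC1 by 35 exonic bases and ARRDC3-AS1 overlaps ARRDC3 by 145, both on the opposite strand. ARRDC1-AS1 went from 13.3 ± 0.516 to 10.9 ± 0.319 RPKM and ARRDC3-AS1 from 2.24 ± 0.0977 to 2.83 ± 0.146 RPKM (SD, n = 4 each). MLX shares 775 exonic bases with PSMC3IP on the opposite strand, which went from 12.6 ± 0.964 to 8.45 ± 0.550 RPKM (SD, n = 4 each). How reads in such stretches were assigned is not known, so the small difference of MLX is uncertain. So are its level, its ratio to MLXIP and its place in the order of levels. A gene on the strand of ARRDC1, ENSG00000283411, overlaps it by 183 exonic bases, and ENSG00000279172 overlaps ARRDC2 by 442 on the opposite strand, and neither had a row. TXNIP, ARRDC4 and MLXIP share no exonic base with another annotated gene.

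The genes with the most similar profile to TXNIP were found by the root mean square difference, over the 8 libraries, of log2(RPKM + 1) after each gene was centred on its mean. Among the 5 nearest were NOP56 (0.018), a nucleolar protein, LDHA (0.027), which makes lactate from pyruvate, ADAMTS1 (0.031), a secreted protease, and LRIG3 (0.037), a membrane protein with leucine-rich repeats. NOP56 went from 195.7 ± 3.82 to 103.0 ± 0.870 RPKM and LDHA from 382.0 ± 20.3 to 207.8 ± 3.52 RPKM (SD, n = 4 each). ARRDC4 came 52nd of 14525 genes (0.079). The next member, MLX, came at rank 4681. This measure includes the difference between SB-treated and control libraries, which was known when the members were chosen. The ranks of the members therefore largely restate that difference and are no separate result. The same holds for the nearest genes. The log2 fold changes of the 5 nearest lay between -0.92 (NOP56) and -0.87 (LDHA), beside -0.90 for TXNIP. Whether they share regulation with TXNIP was not tested.

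The other genes of the axis were taken from 7 lists by function, 92 genes of which 79 had a row. These were tested, with limma and adjustment over all 14526 genes, and ± gives the SD throughout. The lists were chosen with earlier results of these data known. Their p-values and counts therefore describe these libraries and are no independent support for the axis. Of the 79, 23 rose, 37 fell and 19 did not pass the test, against 33.0% rising and 32.6% falling among all genes. The same shares of all genes stand beside the counts of each list below. Rises made up 38.3% of the calls in the lists and 50.2% of those among all genes. Without the TMM scaling of the libraries these shares were 51.6% and 65.1%, so both moved up together.

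**Figure D5:**
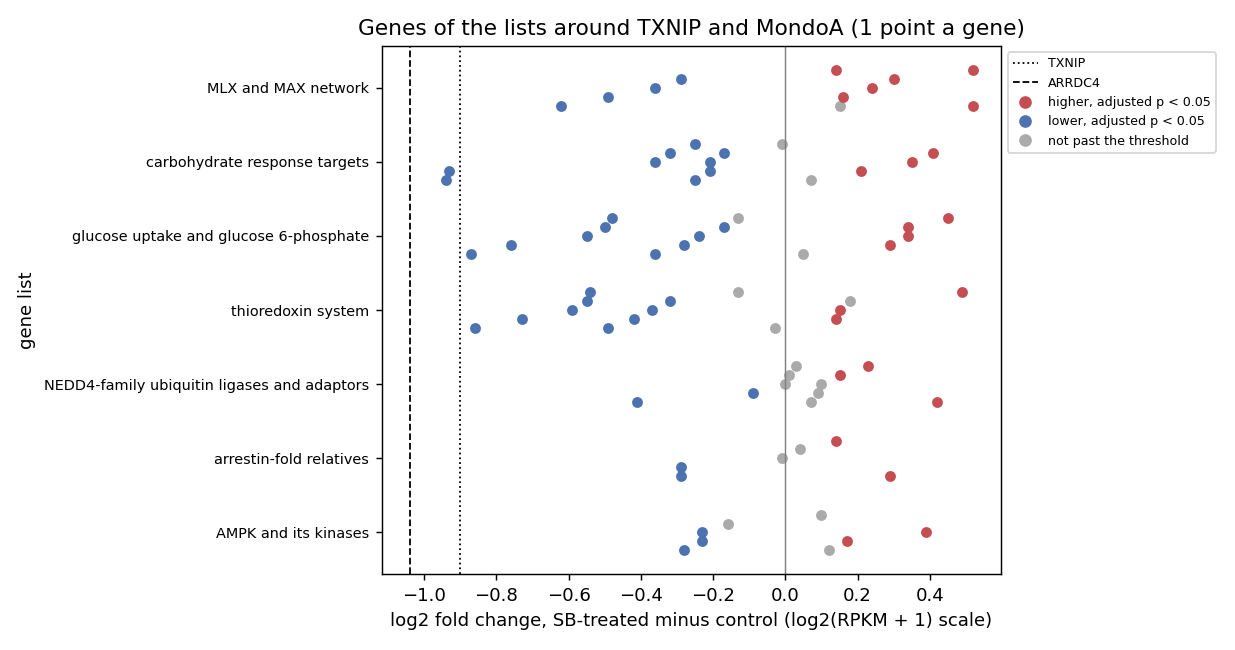
Log2 fold change (SB-treated minus control, log2(RPKM + 1) scale) of the genes of the 7 lists, 1 point a gene, with red for higher and blue for lower at an adjusted p-value below 0.05 and grey for the rest. Vertical lines mark TXNIP (-0.90) and ARRDC4 (-1.04). KLF10 and RGS16 in the list of carbohydrate response targets are the 2 points between these lines.

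Of 14 measured genes known to respond to carbohydrate through MondoA or its paralogue ChREBP, 3 rose and 9 fell (median log2 fold change -0.21, beside 0.00 for all genes). Without TMM factors 5 rose and 5 fell, while all genes went from 4787 rises and 4740 falls to 6253 and 3355. KLF10, a zinc finger repressor, measured 27.2, 23.4, 24.8 and 23.7 RPKM in the controls and 12.2, 12.3, 12.3 and 12.9 RPKM in the SB-treated cells. It fell with a log2 fold change of -0.94 (SE 0.049, limma adjusted p = 6.24e-07), and the groups were far apart. RGS16, which shortens G protein signals, fell from 10.5 ± 1.12 to 5.01 ± 0.0766 RPKM (SD, n = 4 each, limma adjusted p = 2.60e-06). HK2, the inducible hexokinase, fell from 25.1 ± 0.897 to 19.3 ± 0.341 RPKM (limma adjusted p = 1.97e-05, n = 4 each). PFKFB3, which makes the activator of phosphofructokinase, fell from 25.1 ± 1.95 to 21.6 ± 0.426 RPKM (limma adjusted p = 0.00711, n = 4 each), a call that was lost without TMM factors. The lipogenic genes of this list did not share a direction. FASN, the fatty acid synthase, rose from 44.9 ± 8.20 to 59.2 ± 2.97 RPKM (limma adjusted p = 0.0131, n = 4 each). Its control replicate 1 was low, at 32.7 RPKM, and the log2 fold change was 0.41, or 0.27 without that library. ACACA also rose, whereas ACLY, ME1, ELOVL6 and ACACB fell. SCD, the stearoyl-CoA desaturase, was at 277.4 ± 7.72 and 275.6 ± 3.22 RPKM (n = 4 each) and, like DGAT2, did not pass the test.

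Of 11 measured genes of the MLX and MAX network, which competes for E-boxes, 6 rose and 4 fell. The count of rises varied between 3 and 7 over the alternatives, and was 3 without SB-treated replicate 2, 3 or 4. The partners of MLX and MAX that act as repressors were split. MXD1 rose from 2.11 ± 0.123 to 3.46 ± 0.123 RPKM (limma adjusted p = 4.24e-06, n = 4 each) and MXD4 from 16.7 ± 1.21 to 24.4 ± 1.36 RPKM (limma adjusted p = 4.41e-05, n = 4 each), while MXI1 fell from 25.6 ± 2.24 to 16.2 ± 0.545 RPKM (limma adjusted p = 1.26e-05, n = 4 each). MNT was at 7.94 ± 0.807 and 8.91 ± 0.455 RPKM (limma adjusted p = 0.0691, n = 4 each) and passed the test without TMM factors (0.0109). MYC, which pairs with MAX, fell from 131.0 ± 4.80 to 93.0 ± 1.29 RPKM (limma adjusted p = 3.56e-06, n = 4 each). MLXIPL, which encodes ChREBP, measured 4.09, 6.07, 5.75 and 5.79 RPKM in the controls and 6.40, 6.91, 6.46 and 6.30 RPKM in the SB-treated cells (limma adjusted p = 0.0457). That call was lost with a pseudocount of 0.1 (0.056), without control replicate 3 (0.0545) and without any 1 of the SB-treated replicates (0.0691 to 0.109).

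Of 15 measured genes for glucose uptake and the supply of glucose 6-phosphate, 4 rose and 9 fell (median -0.24). SLC37A4, the transporter of glucose 6-phosphate into the endoplasmic reticulum, measured 29.8, 39.5, 39.7 and 39.7 RPKM in the controls and 19.7 ± 0.282 RPKM (SD, n = 4) in the SB-treated cells. It fell by 0.87 on the log2 scale (SE 0.085, limma adjusted p = 1.67e-05), and its control replicate 1 was again far below the rest. SLC2A3, the glucose transporter GLUT3, fell from 11.9 ± 0.159 to 6.66 ± 0.319 RPKM (limma adjusted p = 5.19e-07, n = 4 each). SLC2A1, the transporter GLUT1 that TXNIP acts on, measured 14.3 ± 1.29 and 12.9 ± 0.329 RPKM (n = 4 each) and did not pass the test (limma adjusted p = 0.0726), although it did without control replicate 1 (0.000692). HK1, the constitutive hexokinase, fell from 51.2 ± 2.04 to 45.3 ± 0.258 RPKM (limma adjusted p = 0.00217, n = 4 each), a call that was lost without TMM factors.

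Of 15 measured genes in the list around thioredoxin, which TXNIP binds, 3 rose and 9 fell (median -0.37). Among all genes 33.0% rose and 32.6% fell. TXN, thioredoxin itself, measured 324.8, 311.3, 318.2 and 316.0 RPKM in the controls and 215.9, 216.2, 217.8 and 222.0 RPKM in the SB-treated cells (log2 fold change -0.54, limma adjusted p = 9.64e-07). All treated libraries were far below all controls. The ratio of TXNIP to TXN within a library went from 0.225 ± 0.00434 to 0.174 ± 0.00333 (SD, n = 4 each), so the transcript of the inhibitor was lower by more than that of its target. TXNRD1, the cytosolic thioredoxin reductase, fell from 51.0 ± 1.91 to 36.1 ± 0.156 RPKM (limma adjusted p = 3.30e-06, n = 4 each). DDIT4, an inhibitor of mTORC1 that can bind TXNIP, fell from 400.6 ± 19.1 to 219.9 ± 4.28 RPKM (limma adjusted p = 4.26e-07, n = 4 each), and GLRX, glutaredoxin, from 7.23 ± 0.288 to 3.97 ± 0.232 RPKM (limma adjusted p = 1.14e-06, n = 4 each). Of those that rose, SRXN1, which repairs oxidised peroxiredoxins, went from 19.7 ± 0.668 to 28.0 ± 0.822 RPKM (limma adjusted p = 4.35e-06, n = 4 each).

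Among the ubiquitin ligases of the NEDD4 family and their adaptors, which the alpha-arrestins recruit, changes were smaller, with 3 of 11 rising, 2 falling and 6 not past the test. Without TMM factors 6 rose and 1 fell, 5 rose without control replicate 1, and 1 fell when any other single library was left out. ITCH, a ligase of TXNIP, rose from 22.3 ± 1.17 to 24.9 ± 0.799 RPKM (limma adjusted p = 0.0130, n = 4 each) with groups that overlapped. NEDD4L rose from 4.67 ± 0.135 to 5.64 ± 0.0834 RPKM (limma adjusted p = 1.90e-04, n = 4 each) and SMURF2 from 8.64 ± 0.642 to 11.9 ± 0.298 RPKM (limma adjusted p = 5.21e-05, n = 4 each). NEDD4 was at 5.31 ± 0.275 and 5.29 ± 0.133 RPKM (limma adjusted p = 0.920, n = 4 each). NDFIP1, an adaptor that activates these ligases, fell from 40.4 ± 3.61 RPKM (SD, n = 4) to between 29.2 and 30.7 RPKM (limma adjusted p = 1.71e-04).

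Of 6 measured relatives with an arrestin fold, 2 rose and 2 fell, and 1 rose without control replicate 3 or SB-treated replicate 2. ARRB2, the beta-arrestin 2 that silences G protein-coupled receptors, fell from 53.4 ± 2.0 to 43.3 ± 0.539 RPKM (limma adjusted p = 7.59e-05, n = 4 each), and VPS26A, a retromer subunit, from 44.7 ± 3.04 to 36.3 ± 0.392 RPKM (limma adjusted p = 4.86e-04, n = 4 each). ARRB1 was at 5.99 ± 0.451 and 5.91 ± 0.184 RPKM (limma adjusted p = 0.809, n = 4 each). Of 8 measured genes of AMPK, the energy-sensing kinase that marks TXNIP for degradation, and of its activating kinases, 2 rose and 3 fell, with 4 rising without TMM factors. PRKAA2, a catalytic subunit, rose from 13.0 ± 1.02 to 17.4 ± 0.787 RPKM (limma adjusted p = 1.90e-04, n = 4 each), and PRKAB2, a scaffold subunit, fell from 32.3 ± 2.52 to 26.3 ± 0.223 RPKM (limma adjusted p = 8.20e-04, n = 4 each). PRKAA1, the other catalytic subunit, was at 13.8 ± 2.13 and 12.2 ± 0.264 RPKM (limma adjusted p = 0.121, n = 4 each).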

How the data were processed

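RNA-seq of 4 control and 4 SB-treated samples, grouped and numbered by their titles, was analysed. The authors aligned a stranded total RNA library of each sample to hg38 (TopHat2 2.1.0) and assigned reads to genes (featureCounts 1.5.0). A gene needed more than 1 CPM in 2 or more samples, library sizes were TMM-scaled in edgeR 3.16.5, and RPKM values for 14526 genes were deposited by the authors. The table also holds the authors' log2 fold change, mean log2 CPM, p-value and FDR, which were not used. No column of per-sample values was left out.

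Whole reads were recovered from the RPKM for 100% of the genes (tolerance 0.02 reads). TMM factors were between 0.957 and 0.970 in the controls and between 1.03 and 1.04 in SB-treated libraries. Groups were compared on log2(RPKM + 1) by limma (version 3.58.1, R 4.3.3), without a block or a further filter and with Benjamini-Hochberg adjustment over all genes. The scripts were also tested on simulated data. The pseudocount of 1 understates the change of low genes. P-values measure only the spread between these samples. Alternatives were a pseudocount of 0.1, libraries without TMM factors, median-of-ratios scaling, a mean RPKM of at least 1, the replicate number as a block, voom on the recovered reads and leaving out each sample.

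The members and gene lists were chosen with earlier results of these data known. Named genes are the members, the 2 called genes with the largest absolute log2 fold change in each list, 18 genes central to the axis whether called or not, the hepatocyte markers with a row and the 5 genes nearest to TXNIP, of which some are not reported here. FASN, SCD and the other lipogenic genes, SRXN1, GFPT1, RCN3 and the overlapping genes were added as examples after their values were seen. Positions are from GENCODE release 44 and upstream windows from RefSeq (GRCh38.p14), both on hg38, and all 7 members matched. Older symbols were matched through the RefSeq table.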

Additional observations from a re-analysis of the deposited data

Results flagged for a closer look

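Single libraries lay far from the other 3 of their group for 13 of 72 groups examined among the members and the named genes, where chance gives about 3.60 (1 in 20). The measure is the gap to the nearest other library as a share of the whole range of log2(RPKM + 1), against Dixon's 95% critical value for 4 values. Control replicate 1 was the far library in 9 of the 13. Among the members it was the lowest control for MLXIP (0.986) and the highest for ARRDC4 (0.903) and ARRDC3 (0.868). In the lists it was the lowest for SLC37A4 (0.980), MLXIPL (0.858), ARRB1 (0.856) and MNT (0.832), and the highest for MXI1 (0.950) and PRKAB2 (0.883). SB-treated replicate 2 was the highest for GLRX (0.967), PFKFB3 (0.952) and HK1 (0.941), and SB-treated replicate 1 for NEDD4L (0.965). Among all 14526 genes this was so of control replicate 1 for 14.6%, against 0.379%, 0.620% and 0.317% for control replicates 2, 3 and 4.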

How the results depend on the processing

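Of 98 log2 fold changes of the 7 members over 14 alternatives, 93 kept their direction and moved by less than the spread between replicates. Without TMM factors, which raised the median of all genes from 0.0045 to 0.0791, TXNIP was at -0.80, ARRDC4 at -0.94 and MLX at -0.03, and ARRDC3 turned to 0.07. ARRDC3 also turned to 0.03 without control replicate 1, and ranged from -0.05 to 0.03 over the fits that left out 1 library each. In those fits TXNIP ranged from -0.91 to -0.88, ARRDC4 from -1.06 to -0.99, MLXIP from 0.47 to 0.64 and ARRDC2 from 0.42 to 0.54. The number of list genes higher was 19 to 33 and lower 31 to 38 over the alternatives. Of 406 values of 29 named list genes, 388 kept their direction and side of the threshold. NEDD4 turned to 0.08 without TMM factors, 0.02 without control replicate 1 and 0.008 without SB-treated replicate 3, and ARRB1 to 0.08 without TMM factors and to between 0.002 and 0.005 without control replicate 3 or 4 or SB-treated replicate 4 (range -0.06 to 0.005 when 1 library was left out). Neither passed the test with all 8 libraries.

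With the replicate number as a block, 26 list genes were higher and 37 lower, and 4885 and 4894 of all genes, in place of 4787 and 4740. MNT passed the threshold with the block (adjusted p = 0.0155 in limma). Deviations of same-numbered replicates correlated at 0.38, 0.327, 0.173 and -0.16, with a mean of 0.18 against -0.0541 for other pairs, and 4 of 8 samples correlated best with their own number. Since not every pair was above 0.1 and no label ties the numbers to a shared culture or day, they were not taken to pair the samples. Depth set a counting error of at most 4.24% for ARRDC1 and 4.87% for ARRDC2, the members with the fewest reads.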
